A study of Mus musculus with 16 samples.

Results

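The genes described here are 40 genes of DNA replication and S phase, the stage of the cell cycle in which the genome is copied. They were chosen by gene symbol. All 40 were found among the 46078 genes of the count table, and all 40 passed the filter on low counts that left 15096 genes for testing. The libraries were made from demyelinated spinal cord of C57BL/6 mice aged 8 to 12 weeks. Lysolecithin, a lipid that strips myelin from axons, was given to every mouse, so no group is free of injury. The mice then had a running wheel they could turn (exercise) or a locked wheel in otherwise equal conditions (control), and lesion tissue was taken at day 5 or day 10 by laser microdissection of frozen cord. This gave 4 groups of 4 libraries: control replicates 1, 2, 5 and 6 and exercise replicates 1, 2, 7 and 12 at day 5, and control replicates 2, 3, 4 and 5 and exercise replicates 13, 17, 18 and 19 at day 10. Nothing in the labels ties each library to its own animal, and the p-values below therefore reflect only how far these libraries differ among themselves.

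DNA copying starts at origins, which the origin recognition complex marks and on which Cdc6 and Cdt1 load the Mcm2-7 ring, the core of the helicase that unwinds the double strand. Cdc45 and the GINS complex switch the ring on, polymerases with the primase extend the new strands behind it, and the Pcna clamp holds the polymerases on DNA. Many of these genes are switched on together as a cell enters S phase, by E2F transcription factors, so their mRNA is commonly read as a sign of dividing cells. In a demyelinated lesion, microglia, infiltrating macrophages and oligodendrocyte precursors are known to divide.

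Totals per library were 8.13 M to 13.93 M counts. The mitochondrial rRNA gene mt-Rnr2 took 8.05% to 10.28% of the counts in control and 10.91% to 12.94% in exercise at day 5, ranges that do not overlap. Markers of mature oligodendrocytes, expected in spinal cord, summed to between 10400 and 26900 CPM (read counts corrected for TMM-adjusted depth) across all 16 samples. Only 1 of the markers examined, the ependymal gene Tmem212, was at 0 in every library. Exercise replicate 17 of day 10 was the highest of its group in 24 of the 40 genes. It is left out of the authors' deposited day 10 comparison, so results that rest on it are given with and without it.

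In control mice, replication genes were lower at day 10 than at day 5. The fall passed the threshold (adjusted p under 0.05, edgeR quasi-likelihood test with Benjamini-Hochberg adjustment over 15096 genes) in 28 of the 40 genes, and none rose. Of all genes tested, 6.64% fell by the same rule, 5.66% rose and 12.3% changed in either direction. The log2 fold change was negative in 39 of the 40, with a median of -0.88 against 0.01 over all genes tested. Values ran from -2.34 for Mcm10, a factor that helps start the helicase, to 0.50 for Chaf1a, a subunit of the chromatin assembly factor that puts histones on new DNA. In 31 of the 40 genes every day 10 library lay below every day 5 library, against 10.7% of all genes tested. These are bulk samples, so fewer dividing cells and less replication mRNA per cell cannot be told apart.

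In exercising mice the same direction was seen with fewer calls. The threshold was passed by 15 of the 40 genes, all of them lower, where 4.9% of all genes tested were lower, 5.17% higher and 10.1% changed in either direction. The median log2 fold change was -0.67 against 0.01 over all genes tested, and 38 of the 40 were negative. Every day 10 library lay below every day 5 library in 15 genes, against 7.09% of all genes tested. The control and exercise day comparisons share no libraries but were fitted with 1 shared estimate of spread over all 16 libraries. Both called 13 genes lower (Ccne1, Cdc45, Chaf1b, Dut, Fen1, Mcm2, Mcm3, Mcm5, Mcm6, Pcna, Rrm2, Tk1 and Uhrf1), which is 46.4% of the calls in control and 86.7% of those in exercise. Control alone called 15, exercise alone called Mcm4 and Rpa1, and 10 were called in neither. How many of all genes tested were called lower in both was not counted, so this overlap has no background share. The difference between the day changes was itself tested as an interaction, and none of the 40 genes passed, which is set out with the effects of running below.

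Summed over the 40 genes, the level was 1375 to 1512 CPM in control and 1258 to 1331 CPM in exercise at day 5. At day 10 it was 680.1 to 929.8 CPM in control and 705.7 to 1067 CPM in exercise. No day 10 library reached the lowest day 5 library. The highest day 10 libraries were exercise replicate 17 and, in control, replicate 4, whose 929.8 CPM compares with 680.1 to 753.9 CPM in the other 3 control libraries.

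**Figure D1:**
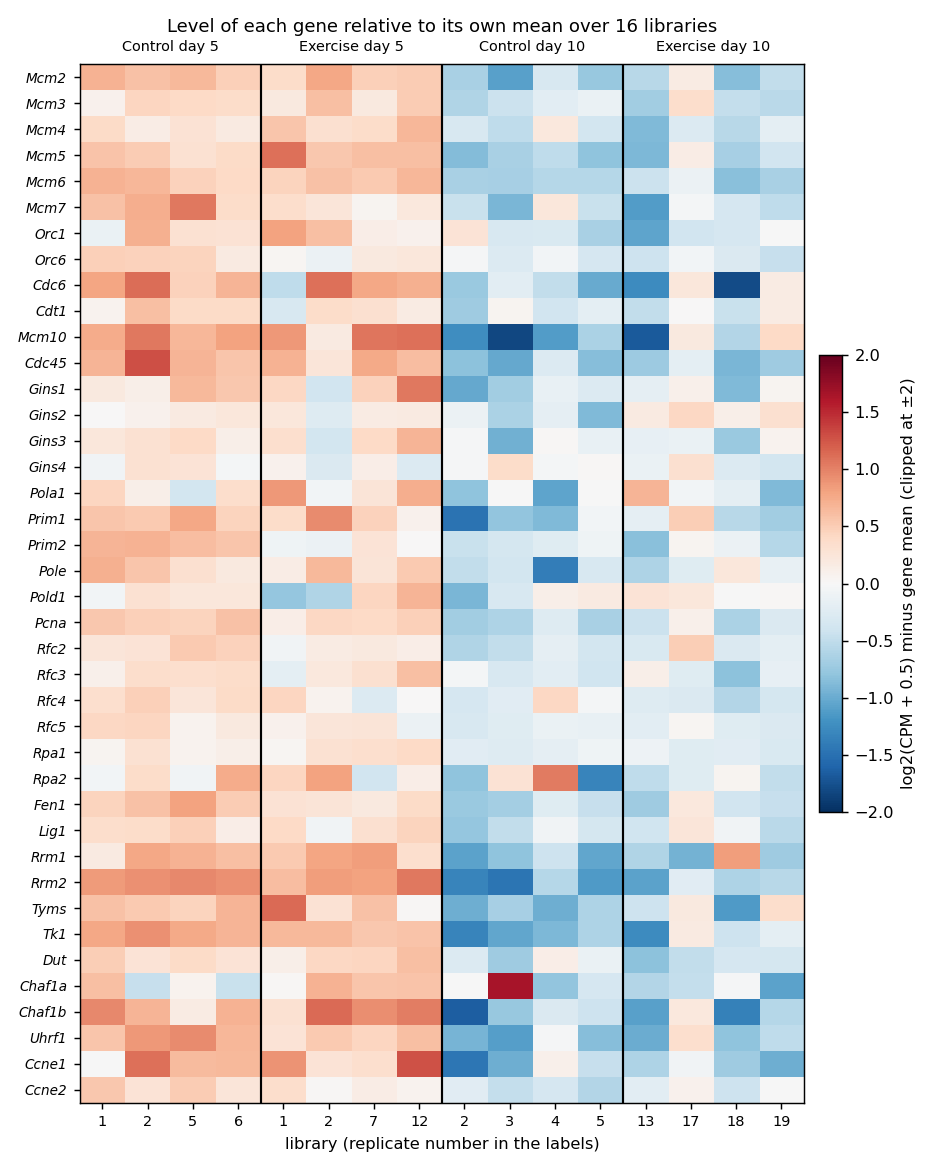
Level of each of the 40 genes (rows, ordered by role) in each library (columns, with the replicate number of the labels), as log2(CPM + 0.5) minus the gene's own mean over 16 libraries, with colours clipped at 2 either way. The day 5 columns are mostly above and the day 10 columns mostly below each gene's mean; at day 10, exercise replicate 17 was the highest of its group in 24 of 40 genes.

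Marker genes of several cell types moved with the day as well. Markers of macrophages and monocytes summed to 7430 to 13400 CPM in control at day 5 and 6120 to 7310 CPM at day 10, and to 8350 to 13200 and 5240 to 7470 CPM in exercise. Most of this sum was Lyz2, lysozyme, at a mean of 8960 CPM in control at day 5. Gene by gene, 3 of the 8 fell in control (Cd68, Arg1 and Chil3), while Plac8 (log2 0.83), Ms4a7 (0.19) and Ccr2 (0.13) had the opposite sign without passing. In exercise all 8 were negative and 5 passed. Mature oligodendrocyte markers went the other way in control, from 10400 to 14300 CPM at day 5 to 23400 to 26300 CPM at day 10, but overlapped in exercise, at 11600 to 16400 and 11600 to 26900 CPM. Neutrophil markers were higher at day 10 without overlap in both, at 61.5 to 97.5 and then 127 to 191 CPM in control and 73.6 to 90.1 and then 178 to 194 CPM in exercise. Homeostatic microglia markers overlapped between the days in control, at 7580 to 10200 and 6340 to 8590 CPM. Summed oligodendrocyte precursor markers were higher at day 10 without overlap in control, at 836 to 930 and then 977 to 1220 CPM. Gene by gene in control, only Pdgfra passed (log2 0.38, edgeR adjusted p 0.0354). Gpr17 was level (log2 0.003) and Cspg4 had the opposite sign (-0.31) without passing. In exercise the precursor markers overlapped, at 691 to 922 and 773 to 1120 CPM. All 8 macrophage, all 8 microglia and all 7 genes of each oligodendrocyte list were detected. The part of these shifts in the fall of the replication genes was not tested.

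The promoters of some of the genes that fell together are shown here because several hold the letters of E2F-type sites. RefSeq (GRCm38.p6) gave a window of 300 bases, 250 before to 50 after the transcription start, for 32 of the 40 genes. The letters TTTCGCGC, TTTGGCGC, TTTCCCGC and TTTGCCGC were searched on both strands. At least 1 of them occurred in 13 of the 32 genes (40.6%), which have 37 windows, 13 of them with a match. By window, the share was 2.3% of all 32851 and 3.7% of the 14223 of genes tested. The stretches below are the 200 bases before the start, 5′ to 3′ on the gene's strand, with E2F-type letters in capitals. They lie at chr1:128359706-128359905 (minus strand) for Mcm6, chr8:75109309-75109508 (plus) for Mcm5, chr17:56304113-56304312 (plus) for the second of 2 Uhrf1 windows, chr11:98907951-98908150 (plus) for Cdc6 and chr12:24708054-24708253 (plus) for Rrm2.
Mcm6: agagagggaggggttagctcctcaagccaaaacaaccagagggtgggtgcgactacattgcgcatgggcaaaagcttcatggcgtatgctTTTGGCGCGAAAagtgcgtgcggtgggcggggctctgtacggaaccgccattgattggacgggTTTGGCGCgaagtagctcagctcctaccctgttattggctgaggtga
Mcm5: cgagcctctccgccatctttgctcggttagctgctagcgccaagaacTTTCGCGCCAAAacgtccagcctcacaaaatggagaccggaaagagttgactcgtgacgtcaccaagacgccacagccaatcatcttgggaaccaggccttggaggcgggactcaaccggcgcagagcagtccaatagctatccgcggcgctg
Uhrf1: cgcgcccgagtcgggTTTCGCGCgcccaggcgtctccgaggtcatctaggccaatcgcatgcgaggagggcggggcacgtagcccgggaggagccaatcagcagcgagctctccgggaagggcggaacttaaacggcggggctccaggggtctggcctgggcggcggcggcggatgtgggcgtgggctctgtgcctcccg
Cdc6: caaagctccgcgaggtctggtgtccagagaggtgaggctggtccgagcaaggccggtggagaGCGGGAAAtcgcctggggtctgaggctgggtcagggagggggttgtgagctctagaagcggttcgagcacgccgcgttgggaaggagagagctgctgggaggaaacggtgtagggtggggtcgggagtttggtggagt
Rrm2: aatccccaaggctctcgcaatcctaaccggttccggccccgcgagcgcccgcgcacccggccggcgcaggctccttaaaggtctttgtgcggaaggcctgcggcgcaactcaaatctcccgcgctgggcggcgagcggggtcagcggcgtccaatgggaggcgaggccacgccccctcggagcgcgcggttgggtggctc
In Mcm5 a match to TTTCGCGC and one to TTTGGCGC on the other strand overlap to give TTTCGCGCCAAA. Mcm6 holds the same 12 letters on its other strand (TTTGGCGCGAAA) and a second match nearer the start. Only 4 of the 32851 windows hold these 12 letters on either strand, those of Mcm5, Mcm6, Msh3 and Mycn. The Rrm2 stretch holds none of the 4 letter strings. The letters TTTGAA, the core of another cell cycle element, were in 12.5% of the 32 genes (4 of their 37 windows). They were in 17.9% of all windows and 12.3% of those of genes tested. CCAAT was in 62.5% of the 32 genes (22 of their 37 windows), and in 37.4% and 37.4% of those windows. Control mice had 8 of the 13 genes with E2F-type letters called lower at day 10 (median log2 -0.76) and 15 of the 19 without them (median -1.25). A match of letters is a description and says nothing of binding.

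Of the 6 genes of the Mcm2-7 ring, 5 fell in control and 5 in exercise (median log2 -1.12 and -0.95). Mcm6 (ENSMUSG00000026355, chromosome 1, 128331590 to 128359664, GRCm38) was at 68.1, 66.6, 57.9 and 55.2 CPM in control at day 5 and 26.5, 26.2, 28.0 and 28.1 CPM at day 10. In exercise it was at 57.1, 63.0, 60.6 and 66.8 CPM at day 5 and 30.9, 38.7, 23.1 and 26.6 CPM at day 10. No day 10 library of either condition reached any day 5 library. The log2 fold change was -1.19 (SE 0.13, edgeR adjusted p 5.29e-05) in control and -1.05 (SE 0.13, adjusted p 0.00018) in exercise. Mcm2 (chromosome 6, 88883475 to 88898780), another subunit of the ring, had 38.7, 36.2, 37.8 and 33.4 CPM in control at day 5 and 14.96, 10.9, 18.9 and 13.8 CPM at day 10, again without overlap (log2 -1.32, SE 0.20, adjusted p 0.000346). In exercise Mcm2 went from 34.9 ± 4.41 to 18.2 ± 6.02 CPM (SD, n = 4; log2 -0.94, adjusted p 0.00524).

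Mcm5 (ENSMUSG00000005410, chromosome 8, 75109528 to 75128439) was, after Rrm2 and Mcm6, next by p in exercise. Its exercise libraries had 35.4, 23.6, 24.9 and 24.9 CPM at day 5 and 8.38, 17.9, 10.0 and 12.3 CPM at day 10 (log2 -1.17, SE 0.20, adjusted p 0.00149). The groups did not overlap, although replicate 1 at day 5 and replicate 17 at day 10 were each well above the rest of their group. In control Mcm5 went from 22.2 ± 1.86 to 9.74 ± 1.2 CPM (SD, n = 4; log2 -1.19). Mcm7 (chromosome 5, 138164583 to 138172422) fell in control, with 206, 228, 286 and 176 CPM at day 5 and 101, 72.5, 161 and 101 CPM at day 10 (log2 -1.04, SE 0.22, adjusted p 0.00548). Its exercise change of -0.66 had an adjusted p of 0.067. Mcm7 and the microRNA genes Mir25 and Mir93 share 172 exon bases on 1 strand, 3.9% of the exon length of Mcm7, and 9.49% of its 75-base stretches occur unchanged in transcripts of other genes, so its count is uncertain to that extent. Mcm3 fell in both (log2 -0.67 and -0.67, adjusted p 0.0275 and 0.0319). Mcm4 passed in exercise (log2 -0.96, adjusted p 0.00191) and not in control (-0.48, adjusted p 0.0721), and the difference between these changes did not pass (interaction adjusted p 0.561).

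**Figure D2:**
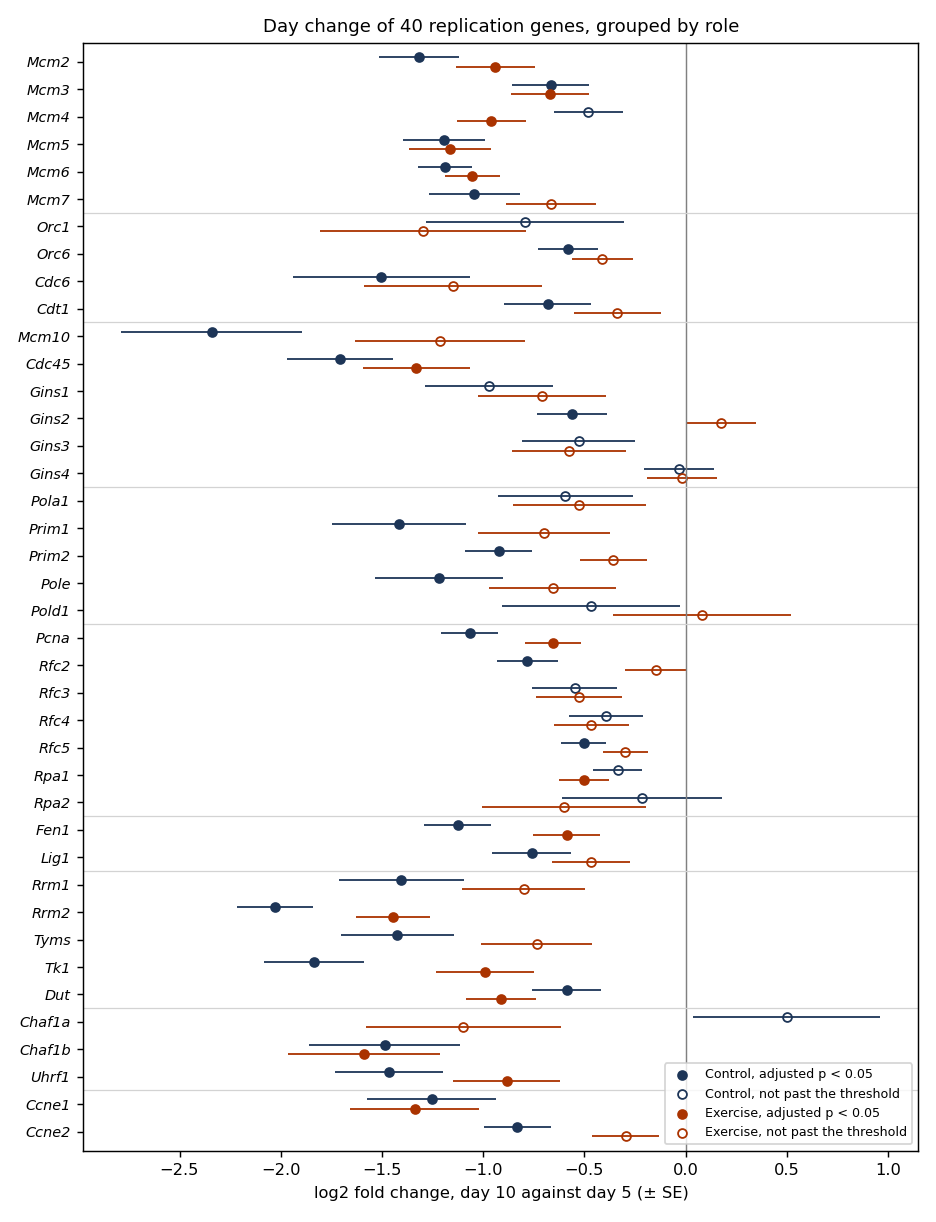
Log2 fold change of day 10 against day 5 (x axis, with SE) for the 40 genes grouped by role (y axis), in control (blue) and exercise (red); filled points passed an edgeR adjusted p of 0.05. Most points lie left of 0, and filled points number 28 in control and 15 in exercise.

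Origin recognition and licensing genes fell in control in 3 of 4 cases and in exercise in none (median log2 -0.74 and -0.78). Orc6, the small subunit of the origin recognition complex, had 20.99, 20.8, 20.7 and 16.9 CPM at day 5 and 14.7, 12.3, 14.4 and 11.7 CPM at day 10 in control, with no overlap (log2 -0.58, SE 0.15, adjusted p 0.0152). In exercise Orc6 went from 16.1 ± 1.78 to 12.1 ± 1.62 CPM (SD, n = 4; adjusted p 0.0902). Cdc6, which loads the ring with Cdt1, was at 8.91, 11.3, 6.95 and 8.21 CPM at day 5 and 2.73, 4.18, 3.35 and 2.21 CPM at day 10 in control (log2 -1.50, SE 0.44, adjusted p 0.0304). Every day 10 value was below every day 5 value, yet the call was lost when any of control replicates 1 and 2 of day 5 or 2, 4 and 5 of day 10 was left out (adjusted p 0.0568 to 0.0858). The exercise values of Cdc6 overlapped, at 3.34, 11.2, 8.78 and 8.38 CPM at day 5 and 1.77, 5.86, 1.06 and 5.58 CPM at day 10. Cdt1 fell in control (log2 -0.68, adjusted p 0.0448). Orc1, the largest subunit of the complex, had the lowest level per length of the 40 genes in control at day 5, with 0.795, 1.83, 1.25 and 1.24 CPM in control at day 5 and 1.22, 0.636, 0.652 and 0.409 CPM at day 10. Those groups overlapped, the adjusted p was 0.317, and 179 counts over 16 libraries limit its precision.

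Among the 6 helicase activation genes, 3 fell in control and 1 in exercise (median log2 -0.77 and -0.64). Cdc45, which joins the ring to form the working helicase, had 8.27, 12.9, 8.29 and 7.49 CPM in control at day 5 and 2.58, 2.18, 4.003 and 2.54 CPM at day 10 (log2 -1.71, SE 0.26, adjusted p 0.00045). In exercise its level was 8.31, 5.95, 8.78 and 7.92 CPM at day 5 and 2.79, 4.29, 2.39 and 2.84 CPM at day 10 (log2 -1.33, SE 0.27, adjusted p 0.00386). The days did not overlap in either condition. Mcm10 (chromosome 2, 4989714 to 5012791) had the largest fall of the 40 in control, 5.07-fold. It was at 5.65, 7.16, 5.35 and 5.96 CPM at day 5 and 1.06, 0.545, 1.21 and 1.88 CPM at day 10 (log2 -2.34, SE 0.45, adjusted p 0.00227). Exercise libraries of Mcm10 overlapped, with 6.23, 3.67, 7.23 and 7.46 CPM at day 5 and 0.652, 3.71, 1.95 and 4.36 CPM at day 10 (log2 -1.21, adjusted p 0.0732).

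The 4 GINS subunits act as 1 complex but did not share 1 pattern of values. Gins2 (ENSMUSG00000031821, chromosome 8, 120578633 to 120589304) fell in control, from 16.9, 17.9, 19.1 and 19.7 CPM to 15.5, 10.6, 14.8 and 8.92 CPM (log2 -0.56, SE 0.17, adjusted p 0.0415). Its exercise values were 19.9, 13.9, 18.9 and 19.2 CPM at day 5 and 19.1, 22.6, 18.3 and 21.2 CPM at day 10, which overlap (log2 0.17, adjusted p 0.575). Gins1 was lower by 0.97 on the log2 scale in control with an adjusted p of 0.052, and Gins3 lower by 0.53 with 0.234. Gins4 was nearly level between the days in control (log2 -0.03, 95% interval -0.41 to 0.34, from the SE and 12 degrees of freedom), at 20.2, 26.2, 25.7 and 20.7 CPM and then 20.96, 27.6, 20.7 and 21.5 CPM. Whether the subunits differ from one another was not tested.

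**Figure D3:**
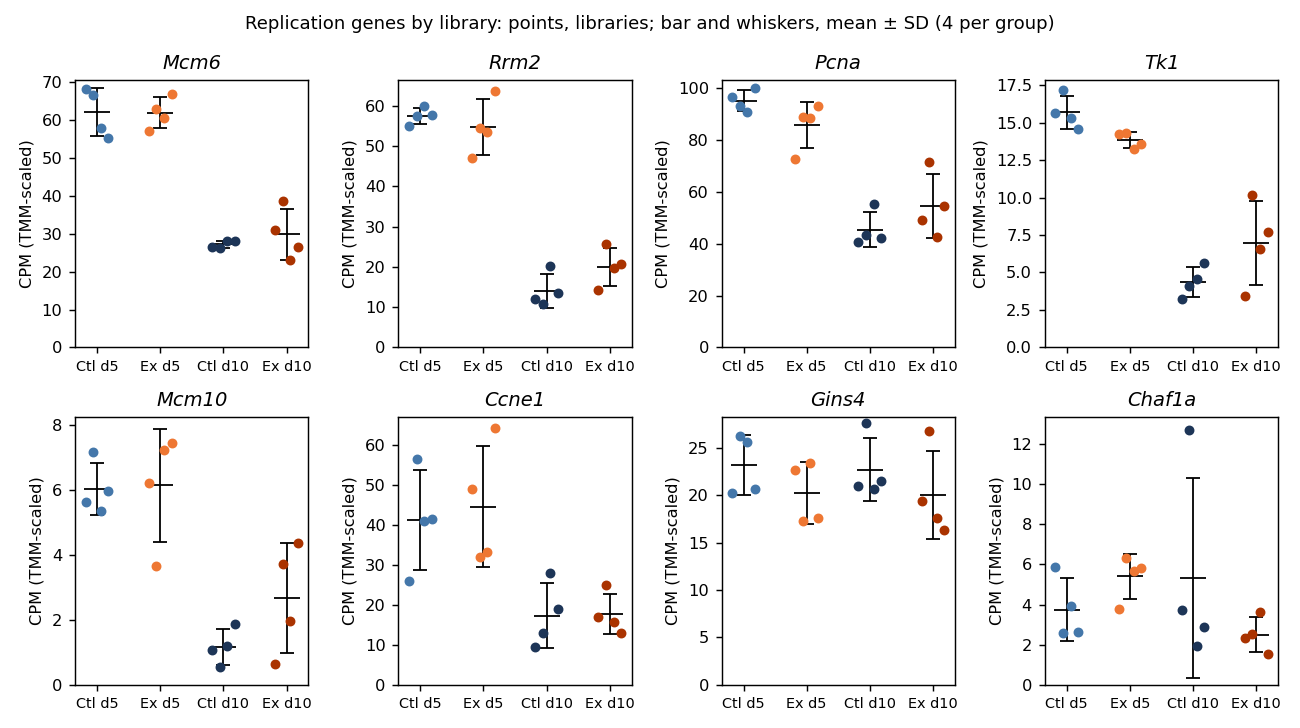
CPM of 8 of the 40 genes in each library (points), with group mean and SD (bars, 4 libraries per group), each panel starting at 0. Rrm2, Mcm6, Pcna and Tk1 show no overlap between the days, Gins4 overlaps throughout, and 1 control library of day 10 sets the high mean of Chaf1a.

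Of the polymerase and primase genes, 3 of 5 fell in control and none in exercise (median log2 -0.92 and -0.52). Prim1, the catalytic primase subunit, was at 8.43, 8.16, 9.89 and 7.70 CPM at day 5 and 1.67, 3, 2.79 and 5.32 CPM at day 10 in control (log2 -1.42, SE 0.33, adjusted p 0.00869). Prim2 (chromosome 1, 33453810 to 33669795), the other primase subunit, had 44.1, 44.6, 42.2 and 40.5 CPM at day 5 and 20.1, 21.4, 23.1 and 25.7 CPM at day 10 (log2 -0.92, SE 0.17, adjusted p 0.0015). Neither primase gene overlapped between the control days. Pole, the catalytic subunit of the leading-strand polymerase, fell in control from 4.27 ± 0.754 to 1.82 ± 0.669 CPM (SD, n = 4; log2 -1.22, adjusted p 0.0162). Pola1, which extends the primers (log2 -0.59, adjusted p 0.267), and Pold1, of the lagging-strand polymerase (-0.47, adjusted p 0.534), did not pass.

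The clamp Pcna (ENSMUSG00000027342, chromosome 2, 132249162 to 132253314) had 96.7, 93.1, 90.7 and 100.2 CPM in control at day 5 and 40.9, 43.3, 55.5 and 42.2 CPM at day 10. Its exercise libraries had 72.9, 88.9, 88.3 and 93.0 CPM and then 49.3, 71.5, 42.7 and 54.5 CPM. The days were apart in both conditions, by a narrow gap in exercise, where replicate 17 at day 10 was just under replicate 1 at day 5. Pcna fell by 1.07 on the log2 scale in control (SE 0.14, adjusted p 0.00014) and by 0.65 in exercise (SE 0.14, adjusted p 0.00625). The pseudogene Pcna-ps2 holds 13.9% of the 75-base stretches of Pcna unchanged, so its count carries the same kind of uncertainty. Of the 7 clamp, clamp loader and single-strand binding genes, 3 fell in control and 2 in exercise (median log2 -0.50 and -0.50).

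Rfc2, a subunit of the loader that opens the clamp, had 146, 150.3, 178 and 171 CPM in control at day 5 and 81.2, 88.1, 109.7 and 96.5 CPM at day 10 (log2 -0.78, SE 0.15, adjusted p 0.00279). Its exercise values were 118, 139, 143 and 137 CPM at day 5 and 100.3, 174, 102 and 109 CPM at day 10, where replicate 17 was above all day 5 exercise libraries. Rfc5 fell in control (log2 -0.50, adjusted p 0.00628), while Rfc3 (-0.55, 0.101) and Rfc4 (-0.39, 0.168) did not pass. Rpa1, of the protein that coats single-stranded DNA, fell in exercise (log2 -0.50, adjusted p 0.0137) and was at -0.34 in control (adjusted p 0.0799). Its partner Rpa2 had wide control values at day 10, from 4.91 to 27.4 CPM, and passed in neither. Fen1 and Lig1, which trim and join the short fragments of the lagging strand, both fell in control. Fen1 had 57.0, 62.9, 72.7 and 59.2 CPM at day 5 and 24.5, 25.7, 34.9 and 30.2 CPM at day 10 (log2 -1.13, SE 0.17, adjusted p 0.000328). Lig1 went from 20.6 ± 2.08 to 12.2 ± 2.59 CPM (SD, n = 4; log2 -0.76, adjusted p 0.0145).

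All 5 nucleotide supply genes fell in control, and 3 of 5 in exercise (median log2 -1.42 and -0.91). Rrm2 (ENSMUSG00000020649, chromosome 12, 24708241 to 24714146), the small subunit of ribonucleotide reductase, which makes DNA building blocks, had the smallest p of the 40 genes in both. Its control libraries were at 55.0, 57.4, 59.8 and 57.6 CPM at day 5 and 11.9, 10.7, 20.2 and 13.5 CPM at day 10. In exercise they were at 47.0, 54.5, 53.4 and 63.7 CPM and then 14.3, 25.8, 19.7 and 20.6 CPM. Every day 5 library was above every day 10 library by a wide margin, with a 4.08-fold fall in control and a 2.72-fold fall in exercise. Tk1, the thymidine kinase of dividing cells, had 15.7, 17.2, 15.3 and 14.5 CPM at day 5 and 3.27, 4.09, 4.56 and 5.65 CPM at day 10 in control (log2 -1.83, SE 0.25, adjusted p 0.000159). In exercise Tk1 was at 14.3, 14.3, 13.2 and 13.5 CPM and then 3.45, 10.2, 6.56 and 7.71 CPM (log2 -0.99, SE 0.24, adjusted p 0.0137). Tyms, which makes thymidylate, and Rrm1, the large subunit of ribonucleotide reductase, passed in control (log2 -1.42 and -1.41) and not in exercise (adjusted p 0.0976 and 0.106). Dut, which clears dUTP, fell in both (log2 -0.59 and -0.91).

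The chromatin copying genes were divided. Chaf1b and Uhrf1 passed the threshold in both conditions, and Chaf1a in neither. Uhrf1, which brings the maintenance DNA methyltransferase to new DNA, had 28.5, 35.7, 37.8 and 30.8 CPM at day 5 and 9.87, 8.73, 19.1 and 10.5 CPM at day 10 in control, with replicate 4 the highest (log2 -1.47, SE 0.27, adjusted p 0.00161). Of the 75-base stretches of Uhrf1, 9.05% occur unchanged in Gm5648, so its count is uncertain to that extent. Chaf1b had 10.3, 8.50, 5.79 and 8.58 CPM at day 5 and 1.29, 2.82, 4.10 and 3.68 CPM at day 10 in control (log2 -1.49, SE 0.37, adjusted p 0.0134). Chaf1a, its partner in the same complex, was the exception in sign in control. It had 5.88, 2.58, 3.92 and 2.62 CPM at day 5 and 3.72, 12.7, 1.955 and 2.87 CPM at day 10, so that replicate 3 alone was above the day 5 range. With all libraries its log2 fold change was 0.50 (adjusted p 0.531), and without control replicate 3 of day 10 it was -0.39 (adjusted p 0.561). In exercise every day 10 library of Chaf1a lay below every day 5 library (log2 -1.10, SE 0.48, edgeR adjusted p 0.158).

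Cyclin E, which with Cdk2 drives entry into S phase, is made from 2 genes, and both fell in control. Ccne2 had 15.9, 13.2, 15.6 and 12.9 CPM at day 5 and 9.19, 7.64, 8.47 and 7.04 CPM at day 10, with no overlap (log2 -0.83, SE 0.17, adjusted p 0.00306). Ccne1 fell in both conditions (log2 -1.25 and -1.34, adjusted p 0.0152 and 0.0129), but its control days overlapped, since replicate 1 at day 5 was at 26.0 CPM and replicate 4 at day 10 at 28.1 CPM.

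Some calls depended on single libraries. In control, leaving out 1 library at a time took the call from Mcm3 (without replicates 2, 5 or 6 of day 5 or 2 or 3 of day 10, highest adjusted p 0.0874), Dut (1 or 5 of day 5 or 2, 3 or 5 of day 10, 0.0957) and Ccne1 (2 of day 5 or 3 of day 10, 0.0537). Pole lost it without replicate 1 of day 5 (0.0526) and Lig1 without replicate 2 of day 10 (0.0556). Cdt1 and Gins2, nearest the threshold, each kept it in 7 of 16 such fits (highest adjusted p 0.139 and 0.12), and also lost it without some exercise libraries, which share the estimate of spread. In exercise, Fen1, Mcm3 and Uhrf1 lost the call without any of replicates 2 or 12 of day 5 or 13, 18 or 19 of day 10, Fen1 and Uhrf1 also without 7 and Fen1 without 1 of day 5 (highest adjusted p 0.0868, 0.0982 and 0.0986). The other 20 control calls and 12 exercise calls held in every such fit. Some calls were gained, among them Rrm1 in exercise without replicate 18 of day 10 (edgeR adjusted p 0.000273).

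Levels of different genes were compared per kilobase of exon. In control at day 5 Mcm7 was the highest of the 40, at 50.6 ± 11 CPM per kilobase (SD, n = 4), followed by Pcna at 39.7 ± 1.7. Rfc5 at 26.8 ± 3.2, Fen1 at 26.0 ± 2.9 and Rfc2 at 25.6 ± 2.4 came next and did not differ from one another beyond their spread. Orc1, Pole and Pold1 were the lowest, at 0.367 ± 0.12, 0.382 ± 0.068 and 0.387 ± 0.052, also within their spread. In the other groups the lowest was Pold1 (exercise at day 5, 0.349 ± 0.22), Mcm10 (control at day 10, 0.153 ± 0.072) and Orc1 (exercise at day 10, 0.166 ± 0.086). Within the Mcm2-7 ring, whose subunits come together in equal number, the mRNA level ran from 6.50 ± 0.54 for Mcm5 to 50.6 for Mcm7. Among GINS genes it ran from 2.73 ± 0.25 for Gins3 to 17 ± 2.3 for Gins4. These orders depend on the exon length the count table gives each gene.

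**Figure D4:**
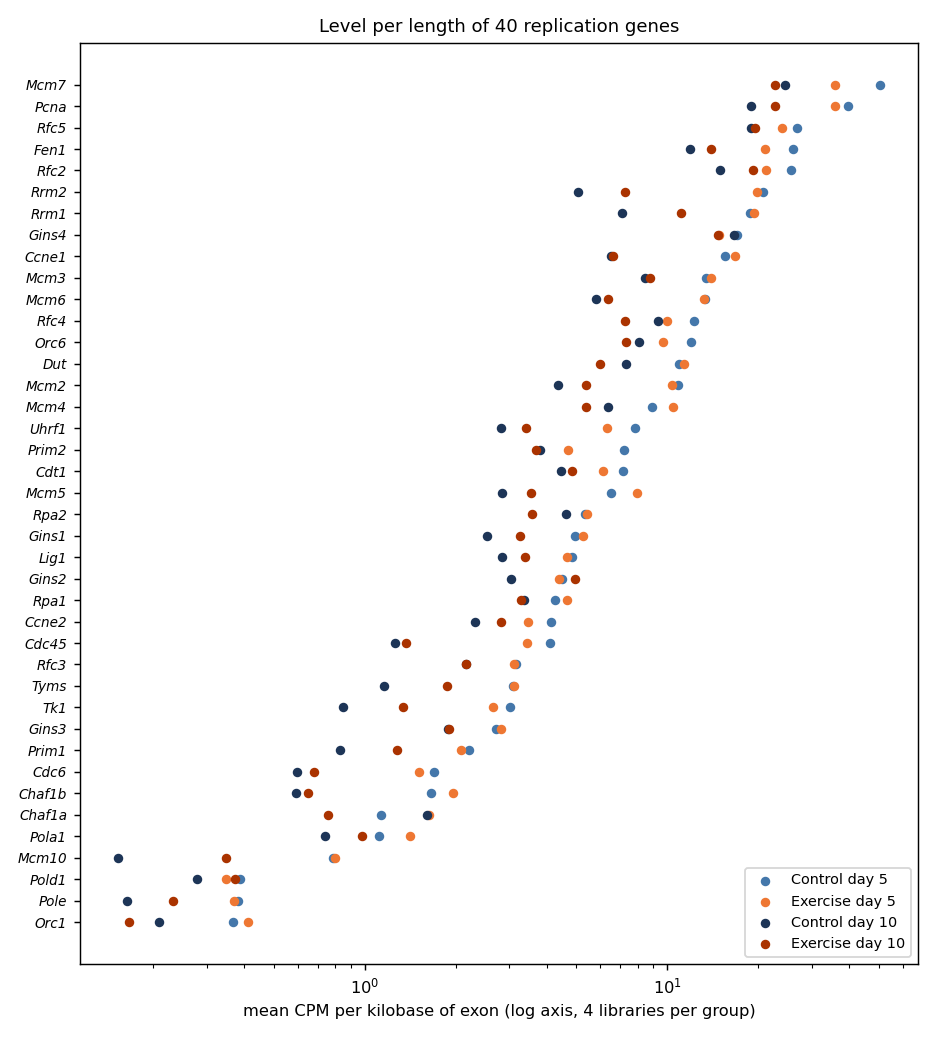
Mean level per kilobase of exon (x axis, CPM per kilobase, log axis) of the 40 genes in the 4 groups (colours), ordered by the control day 5 level, 4 libraries per group. Levels span from 0.367 (Orc1) to 50.6 (Mcm7) in control at day 5, and day 10 points lie mostly to the left of day 5 points.

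Running had no effect past the threshold on any of the 40 genes at day 5 (edgeR, 0 genes called by this rule among all tested, 0.0%). Median log2 of exercise against control was -0.05, with 24 genes lower and 16 higher. Prim2 had the smallest p, at 25.7, 25.2, 33.3 and 27.6 CPM in exercise against 40.5 to 44.6 CPM in control (log2 -0.61, SE 0.17, edgeR adjusted p 0.277). Mcm7 followed, at 174, 162, 142 and 158 CPM against 176 to 286 CPM (log2 -0.49, SE 0.22, edgeR adjusted p 0.481). Neither gene's groups overlapped. In the authors' deposited table for day 5, which lists all 40 genes and gives an adjusted p for 36, both passed 0.05, Prim2 at a log2 fold change of -0.62 (adjusted p 0.000996) and Mcm7 at -0.50 (adjusted p 0.0424). The DESeq2 fit of all 16 libraries made here called 0 of the 40. Orc6 came next by p, with 15.4, 13.8, 17.3 and 17.7 CPM in exercise against 16.9 to 20.99 CPM in control (log2 -0.30, adjusted p 0.501). All exercise libraries lay below all control libraries in 5 genes (Fen1, Mcm7, Prim2, Rfc2 and Tk1), where 3.97% of all genes tested did so, and above in none, against 3.33%. The share of mt-Rnr2 counts separated the same groups, and its part in these values was not tested.

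At day 10 none of the 40 genes passed either, where 0.192% of all genes tested were called. Signs leaned the other way from day 5, with 28 genes higher in exercise and 12 lower. The median log2 was 0.16 against 0.01 over all genes tested. Gins2 had the smallest p, with 19.1, 22.6, 18.3 and 21.2 CPM in exercise against 15.5, 10.6, 14.8 and 8.92 CPM in control. It was the only 1 of the 40 whose exercise libraries all lay above the control libraries (3.3% of all genes tested did), and its log2 fold change was 0.70 (SE 0.17, adjusted p 0.112). DESeq2 gave Gins2 an adjusted p of 0.0162. In the authors' deposited day 10 table, which uses 7 libraries, Gins2 was at 0.64 with an adjusted p of 0.219, and 0 of the 40 genes passed 0.05. Rrm2 (log2 0.51, adjusted p 0.273) and Tk1 (0.66, 0.284) came next, with overlapping groups in both.

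The lean at day 10 was not seen without exercise replicate 17. In that library the 40 genes summed to 1067 CPM, against 705.7 to 812.9 CPM in the other 3 exercise libraries, and it was the highest of its group in 24 genes and the lowest in 1. Chaf1b (5.95 CPM against a mean of 2.36), Uhrf1 (24.5 against 11.3) and Cdc6 (5.86 against 2.81) were the furthest above the mean of the other 3. Rrm1 was lowest in replicate 17, at 25.6 CPM against 32.8, 89.5 and 30.2 CPM, but there the library apart was replicate 18, at 89.5 CPM. Without replicate 17 the median exercise effect at day 10 was -0.01, with 19 genes higher and 21 lower. Leaving out control replicate 4 of day 10 instead, the highest of its group in 20 genes, gave a median of 0.29. The median thus moved either way with single libraries. Homeostatic microglia markers summed to 14200 CPM in replicate 17 and 7000 to 9540 CPM in the other 3, and mature oligodendrocyte markers to 11600 and 15200 to 26900 CPM. Endothelial markers were at 228 CPM against 126 to 184 CPM. The part of these shifts in the replication values of that library was not tested.

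**Figure D5:**
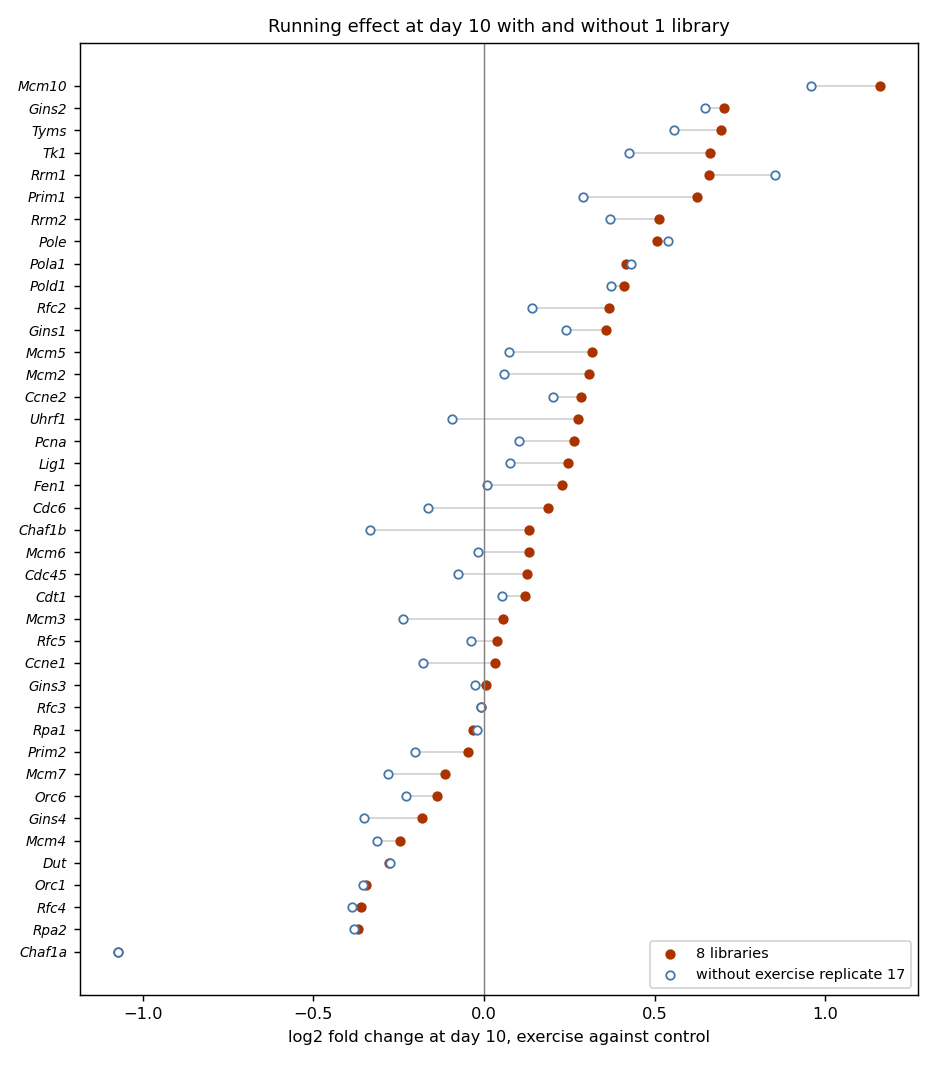
Log2 fold change of exercise against control at day 10 for the 40 genes (y axis, ordered by value) with all 8 day 10 libraries (filled) and without exercise replicate 17 (open). Leaving the library out moves the median from 0.16 to -0.01.

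With both days averaged, 0 of the 40 genes passed (0.146% of all genes tested did). Prim2 (log2 -0.33), Gins2 (0.34) and Rfc4 (-0.33) had the smallest p, and the lowest adjusted p was 0.223 with edgeR. DESeq2 and limma-voom called 0 of the 40 as well. Rfc4, a clamp loader subunit, had 18.5, 20.2, 17.3 and 19.04 CPM in control and 19.6, 15.2, 12.0 and 14.6 CPM in exercise at day 5. At day 10 it had 11.4, 12.3, 19.5 and 14.1 CPM in control and 12.0, 11.7, 9.49 and 11.3 CPM in exercise. Its groups overlapped on both days.

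The day change did not differ between exercise and control at the threshold in any of the 40 genes (0.0% of all genes tested passed). The smallest adjusted p was 0.504 in edgeR, and DESeq2 and limma-voom called 0 of the 40. The median interaction was 0.32 on the log2 scale, positive in 29 genes, meaning a smaller fall in exercise, and 0.135 without replicate 17, positive in 26. Gins2 (0.73, SE 0.25), Rfc2 (0.63, SE 0.22) and Tk1 (0.84, SE 0.34) had the smallest p. Without replicate 17, the fall in exercise was called in 22 genes instead of 15: the same 15 and Cdc6, Lig1, Mcm7, Orc6, Prim1, Rfc2 and Rfc5. The median exercise day change was then -0.82. How many of all genes tested fell in that fit was not counted, so the 22 has no background share. The counts of 28 and 15 come from separate tests, and the difference between the day changes did not pass in any of the 40 genes.

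Genes that work beside the 40 were read from lists by function. Of all genes tested, 6.64% fell and 5.66% rose in control by day, and 4.9% fell and 5.17% rose in exercise. Of 36 other fork and origin genes tested, 10 fell in control and 7 in exercise, and none rose. Gmnn, which blocks a second round of licensing (log2 -1.34, adjusted p 0.00133), Dbf4, which activates the kinase that fires origins (-1.40, 0.00291), and Rnaseh2b, a subunit of the enzyme that removes ribonucleotides (-0.94, 0.00338), had the smallest p in control. Among 21 other nucleotide supply genes, 5 fell and 1 rose in control, and 3 fell in exercise. Nme1, a nucleoside diphosphate kinase, fell from 94.8 ± 13 to 58.9 ± 12.7 CPM in control (SD, n = 4; log2 -0.69, adjusted p 0.00741). Ctps, the CTP synthase, rose (log2 0.53, adjusted p 0.0129).

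Of 30 G1/S regulators tested, 10 fell and 1 rose in control, and 4 fell in exercise. Over all genes tested these shares were 6.64%, 5.66% and 4.9%. Ccna2, the S-phase cyclin, fell from 65.2 ± 7.19 to 19.7 ± 3.81 CPM in control (SD, n = 4; log2 -1.73, adjusted p 0.000169). Ccnd1, the G1 cyclin D1 (log2 -0.64, adjusted p 0.00694), and Cdkn2d, a CDK4 and CDK6 inhibitor (-0.75, 0.00895), also fell. E2f1 was at 15.6, 19.1, 16.5 and 13.7 CPM at day 5 and 8.28, 3.82, 7.45 and 8.68 CPM at day 10 in control (log2 -1.19, adjusted p 0.0488). The retinoblastoma relative Rbl2, a repressor of E2F targets, rose (log2 0.44, adjusted p 0.0222), and Cdkn1a, the p21 inhibitor, did not pass (-0.36, 0.123).

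Of 11 other chromatin copying genes, 7 fell in control and 2 in exercise, where 6.64% and 4.9% of all genes tested did. H2afz, a histone variant (log2 -0.94, adjusted p 5.87e-05), Asf1b, a histone chaperone (-1.86, 0.00127), and Dnmt1, the maintenance methyltransferase (-0.68, 0.00348), had the smallest p. Of 18 checkpoint and repair genes, 7 fell in control and 5 in exercise, among them in control Chek1, the replication checkpoint kinase (log2 -2.07, adjusted p 0.000452), and the exonuclease Exo1 (-1.55, 0.00745).

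For mitosis and G2/M genes, all 30 listed fell in control (median log2 -1.82) and 28 of 30 in exercise (median -1.35), beside medians of -0.88 and -0.67 for the 40 replication genes. Ccnb2, a mitotic cyclin, fell from 41.4 ± 6.65 to 10.2 ± 1.17 CPM in control (SD, n = 4; adjusted p 2.18e-05). Cdca3 (log2 -2.20) and Ckap2l, a spindle protein (-1.81), each had an adjusted p of 3.07e-05. Mki67, the proliferation marker, was at 55.6, 45.9, 29.3 and 42.5 CPM at day 5 and 13.1, 11.4, 14.3 and 13.3 CPM at day 10 in control (log2 -1.73, adjusted p 0.000293). At day 10 none of the 30 passed between exercise and control (median log2 0.45, 25 higher and 5 lower), and without replicate 17 the median was 0.15, with 17 higher and 13 lower. In Mki67 exercise replicates 17 and 19, at 35.9 and 35.2 CPM, were above replicates 13 and 18, each at 16.2 CPM. Without replicate 17, genes called lower in exercise by day numbered 29 of 30 for mitosis and 7 of 36 for fork and origin. They numbered 5 of 21 for nucleotide supply and 6 of 30 for G1/S regulators. For chromatin copying it was 5 of 11, and for checkpoint and repair 6 of 18. In that order, 30, 29, 16, 20, 10 and 13 genes had a negative log2 fold change. The share of all genes tested that fell in that fit was not counted.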

How the data were processed

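RNA sequencing counts of 16 libraries were analysed. Per the labels' protocols, RNA from laser-dissected tissue was amplified (REPLI-g), selected for poly(A), and sequenced as single strand-specific reads of 75 nt, so amplification can add to the spread of low genes. Per the submitters' processing notes, FastQC 0.11.4 checked the reads, and TopHat2 2.0.10 (with Bowtie 1.1.2) placed them on the GRCm38 build. The deposited raw counts per Ensembl gene come from featureCounts 1.5.0-p1, run with strand, per the file headers. Further deposited tables hold the authors' log2 fold changes with p-values for the 2 running comparisons, laid out like DESeq2 output (version 1.12.4 in the notes). The other deposited tables were not used.

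Here the counts were fitted with edgeR 4.0.16 (R 4.3.3): genes were filtered by group with filterByExpr (count of 10 and total of 15 as minimum), scaled by TMM, and fitted over all 16 libraries with 1 mean per group in a robust quasi-likelihood model (12 residual degrees of freedom, common biological coefficient of variation 0.236). Adjusted p-values are Benjamini-Hochberg over 15096 genes, with a threshold of 0.05. The SE of a log2 fold change is its size divided by the square root of F. CPM are TMM-scaled. Symbols and coordinates come from GENCODE release M21 (45143 of 46078 IDs matched) and promoters from RefSeq GRCm38.p6. The model was tested on simulated counts.

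The 40 genes, the gene lists, the tests and the alternatives were chosen with earlier results of these data known. Per-library values are given for the 2 genes with the smallest p in control by day in each role (1 in a role of 2 genes), the 3 with the smallest p in every other comparison, genes of opposite sign, and the extremes of level per length. Of each further list the 3 genes with the smallest p are named, with Cdkn1a, E2f1 and Mki67, except for some that are not reported here; Gins4, Pole, Lig1, Ccne1, Rpa2, Rrm1 and Rbl2 among others were added after their values were seen. Alternatives were RLE scaling, limma-voom (limma 3.58.1), DESeq2 1.42.0, no filter, only the libraries compared, a replicate block, and leaving out each library; values of the further lists without replicate 17 were added after seeing the data.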

Additional observations from a re-analysis of the deposited data

Results flagged for a closer look

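Each of the 40 genes in each of the 4 groups gave 160 sets of 4 libraries, and in 12 of them 1 library stood apart from the other 3 by Dixon's test, where chance gives about 8. Values are CPM.

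In control at day 5, Orc6 was at 16.94 in replicate 6 against 20.67 to 20.99 in the others, Cdc45 at 12.91 in replicate 2 against 7.486 to 8.287, and Rfc3 at 9.938 in replicate 1 against 11.85 to 12.07. In exercise at day 5, Mcm5 was at 35.39 in replicate 1 against 23.56 to 24.88, and Gins2 at 13.94 in replicate 2 against 18.9 to 19.86.

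Control day 10 replicate 3 was high in Chaf1a, at 12.73 against 1.955 to 3.721, and in Gins4, at 27.63 against 20.66 to 21.53. Replicate 4 of that group was high in Pcna, at 55.48 against 40.86 to 43.27, and in Uhrf1, at 19.08 against 8.726 to 10.48. In exercise at day 10, replicate 17 was high in Mcm3, at 51.14 against 24.68 to 28.55, and in Rfc2, at 173.8 against 100.3 to 108.6. Rrm1 was at 89.47 in replicate 18 against 25.57 to 32.79 in the other 3.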

How the results depend on the processing

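The fall of the replication genes in control was called in 26 to 30 of the 40 under RLE scaling, limma-voom, DESeq2, no filter and only the libraries compared, and in 23 to 29 when any 1 library was left out; 20 of the 28 were called in every such fit. In exercise these ranges were 10 to 17 and 12 to 22, and 12 of the 15 were called in every fit that left out 1 library. Labels give some groups the same replicate numbers, but libraries that share a number did not deviate together (correlations of -0.029 to 0.069), and with a replicate block 9 of the 40 genes and 151 of all genes were called in control by day, where only libraries with a shared number bear on the estimate; the median log2 of the 40 was then -1.02, against -0.88 without the block. The block called 0 of the 40 genes in the day 5 effect of running.

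Counts over all genes moved more. Only the libraries compared gave 856 calls in exercise by day and 0 in the day 10 effect of running. DESeq2 gave 67 calls at day 5, 217 at day 10 (1 of them among the 40), 324 for both days and 9 for the interaction. Leaving out 1 library gave 975 to 1839 calls in exercise by day, 0 to 1 at day 5, 0 to 133 at day 10, 0 to 100 for both days and 0 to 1 for the interaction. The median of the 40 genes ran from -0.0139 to 0.29 at day 10 and from 0.135 to 0.38 for the interaction, lowest in both without exercise replicate 17. The 0.29 came without control replicate 4 of day 10. The cause was not tested. Single genes were followed in 34 results, most of them chosen for a small p in these data, which favours stable calls. Of their 730 values under these alternatives, 715 kept direction and side of the threshold, 13 lost the call and 1 gained it. The 1 that reversed was Chaf1a in control, at -0.39 without control day 10 replicate 3 and up to 0.80 with another library left out. Among genes not followed in control by day, Gins4 kept its sign in 18 of 22 alternatives and Rpa2 in 20. Cdt1 was called in 11 of 22 and Gins2 in 10. With 4 libraries a group, low genes such as Orc1 are imprecise.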
